A study of Rattus norvegicus with 93 samples.

Results

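The Fos and Jun family consists of 7 genes (Fos, Fosb, Fosl1, Fosl2, Jun, Junb and Jund), taken by symbol from 38354 genes measured in the rostromedial tegmental nucleus (RMTg) of outbred laboratory rats. The RMTg is an inhibitory brainstem nucleus that projects to midbrain dopamine neurons, and the samples were collected for genetic work on avoidance learning in addiction. All rats belong to 1 group, and the labels used here give no strain name, sex, age, treatment, behaviour or time of collection. Of 92 libraries, each with an identifier of its own, 49 were ordinary in composition and carry the results; in the others Nif3l1 took at least 20% of the counts (11 libraries) or LOC120093067 and Zfp532 together at least 10% (32 libraries). The 49 libraries were grouped by the number series of their sample identifiers, a gap of over 50000 starting a new one, into series F (7 libraries), E (7), D (12), C (16) and B (7). The labels do not say what the series are, so a difference between them cannot be told apart from whatever else differed between the rats or libraries of each. Libraries are called by series and a number, as in F1.

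Fos proteins pair with Jun proteins through a leucine zipper to form AP-1, a family of transcription factors that bind DNA as dimers, whereas Jun proteins can also pair among themselves. Several of the genes are immediate early genes: in neurons their transcription rises quickly and briefly after calcium entry, growth factors or synaptic drive, without new protein being made, and Fos is for that reason widely used to mark recently active cells. Jund is known as the member expressed steadily in unstimulated cells.

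The ordinary libraries held 9.55 to 50.2 M estimated counts each (M stands for 1000000). Medians were 24.997 M in series F, 28.2 in E, 13.8 in D, 16.4 in C and 23.4 in B. All members are given as counts per 1000000 (CPM), which are not adjusted for transcript length, so levels are compared between libraries and not between genes. Markers of neurons were plainly present, with a summed level over 10 genes of 2922 to 3469 CPM in series F, 3020 to 3403 in E and 2714 to 3651 in D, and all 9 genes of a list for RMTg inhibitory neurons passed the filter on low values. Markers of neutrophils and of the ependyma were low, with medians over series of at most 1.03 and 2.93 CPM. In single libraries the neutrophil sum reached 17.2 CPM in C, 9.32 in B and 5.19 in D, against 0.825 in F and 1.84 in E. The ependymal sum reached 6.02 CPM, in C. In bulk tissue, fewer cells of a type and less RNA per cell cannot be told apart.

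Promoter windows of 5 members are in the RefSeq table used here (build GRCr8, 250 bases before to 50 after the gene's start), and 3 are shown because their genes behaved differently below: Junb and Fosl2, which were far higher in series F and E, and Jund, which was not. Capitals mark TGACG, the core that CREB and ATF proteins bind, its full palindrome TGACGTCA, or the TATA motif TATAAA, on either strand. The windows lie at chr19:40080876-40081175 on the plus strand for Junb, chr6:30039220-30039519 on the minus strand for Fosl2 and chr16:18769722-18770021 on the minus strand for Jund.
Junb: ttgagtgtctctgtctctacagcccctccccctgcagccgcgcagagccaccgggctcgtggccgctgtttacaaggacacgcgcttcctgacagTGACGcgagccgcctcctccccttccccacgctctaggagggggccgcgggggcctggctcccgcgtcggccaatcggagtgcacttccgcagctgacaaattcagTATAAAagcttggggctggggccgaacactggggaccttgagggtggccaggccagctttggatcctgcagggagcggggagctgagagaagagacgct
Fosl2: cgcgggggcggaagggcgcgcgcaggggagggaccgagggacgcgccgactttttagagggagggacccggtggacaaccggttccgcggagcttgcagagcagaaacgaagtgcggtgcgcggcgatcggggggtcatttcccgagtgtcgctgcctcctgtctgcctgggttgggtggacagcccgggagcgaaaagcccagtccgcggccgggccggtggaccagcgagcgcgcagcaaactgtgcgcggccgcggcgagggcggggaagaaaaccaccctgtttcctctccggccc
Jund: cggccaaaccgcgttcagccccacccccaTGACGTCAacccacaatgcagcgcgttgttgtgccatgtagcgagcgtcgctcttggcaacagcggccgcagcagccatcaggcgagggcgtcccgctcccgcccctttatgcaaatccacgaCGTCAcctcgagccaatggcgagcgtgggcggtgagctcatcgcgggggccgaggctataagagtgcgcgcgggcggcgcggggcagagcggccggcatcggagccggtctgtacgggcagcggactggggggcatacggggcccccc
Positions are counted from the gene's start. Junb held TGACG at -155 and TATAAA at -49, and Jund held TGACGTCA at -221, which contains TGACG on both strands, and a further TGACG at -98. Fosl1 held TGACG at -148 and -84, Fosb held TATAAA at -180 in a window whose start is not the position the table gives for Fosb, and Fosl2 held none of these letters. The palindrome stood in 1.83% of 33469 promoters of the same length, TGACG in 21.2% and TATAAA in 14.2%. The AP-1 motif TGANTCA (7.33% of promoters) and the CArG box that serum response factor binds (1.64%) stood in 0 of the 5 windows. A match is a description of these letters and not a binding site.

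Across the 49 libraries, 5 of the 7 members were many times higher in series F and E than in series D, C and B, Jun was modestly higher than in D and C, and Jund missed the threshold. For F minus D and E minus D, 6 of 7 members were called higher, against 0.581% of genes in each; for F minus C and E minus C 6 were, against 0.731% and 0.923%, and for F minus B and E minus B 5 were, against 0.421% and 0.331%. In a limma F test among the 5 series, 320 of 18749 genes were called (1.71% of those tested, Benjamini-Hochberg adjusted p under 0.05). Among the members, 6 of 7 were called. Fosb had an adjusted p of 1.81e-25, Fos 1.76e-24, Junb 3.11e-22, Fosl2 1.96e-18, Fosl1 4.14e-13 and Jun 0.00162, while Jund missed the threshold at 0.687. The share of a gene's variance lying between series was 93.7% for Fosb and 92.7% for Fos, ranks 1 and 2 of the 18749 genes, against a median over genes of 9.12%. It was 90.9% for Junb, 87.1% for Fosl2, 78.9% for Fosl1, 44.1% for Jun and 8.84% for Jund. Fosb and Fosl1 passed the filter on low values only through the libraries of series F and E, so they could enter the test only by differing. The p-values measure the spread between these libraries.

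**Figure D1:**
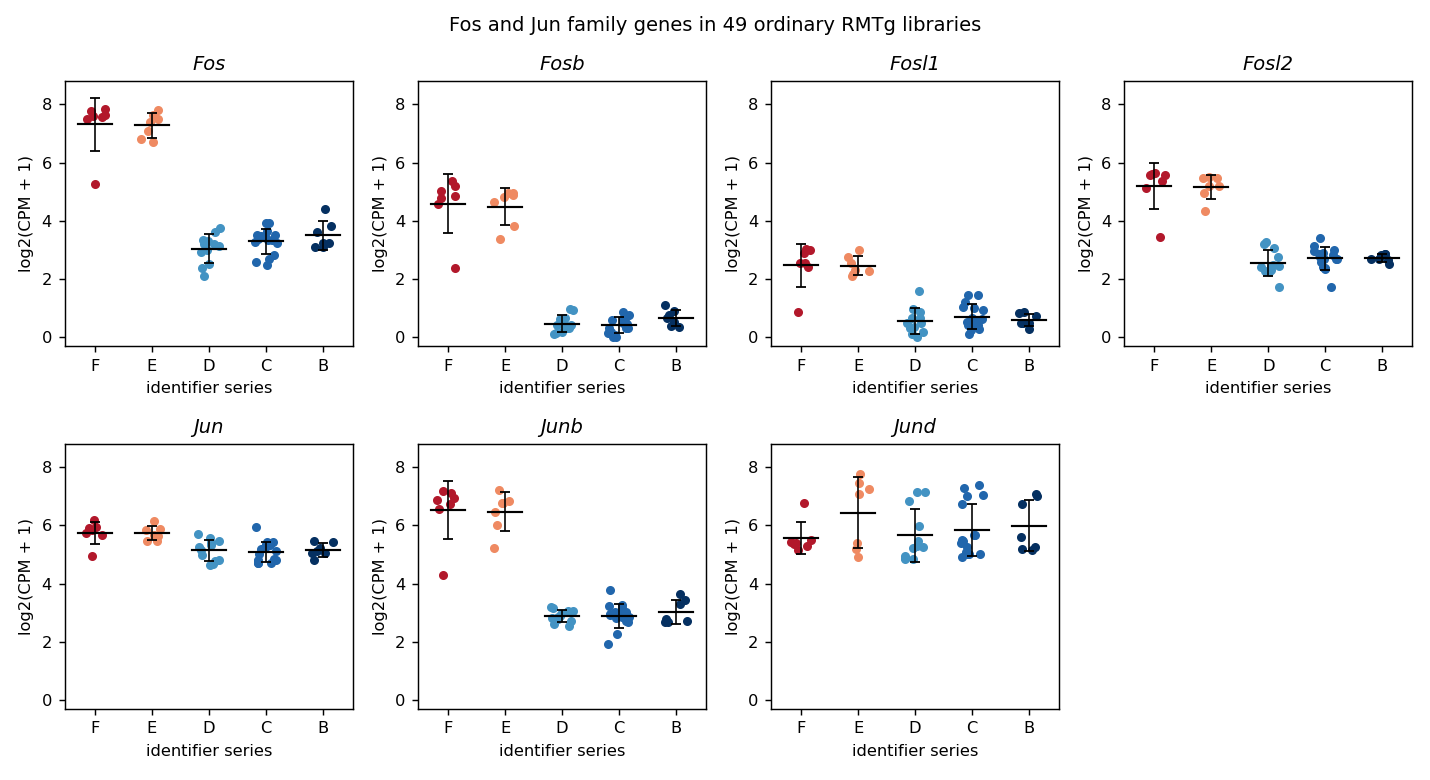
Level of each family member as log2(CPM + 1) on the vertical axis in 49 ordinary libraries by identifier series, with 1 point per library and the mean and SD in black. Fos, Fosb, Fosl2 and Junb have every library of series F and E above every library of D, C and B, and Jund lies at 2 separate levels within each series.

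Fos, the founding member and the usual marker of recent activity, lay between 37.5 and 227 CPM in series F (median 194) and between 103 and 224 CPM in series E (median 167). It lay between 3.31 and 12.5 CPM in series D (median 8.03), 4.62 and 14.2 CPM in C (9.37) and 7.54 and 20.4 CPM in B (8.44). All 14 libraries of F and E stood above all 35 of D, C and B, and the ratio of the medians was 21.4. Only 12 of 18749 genes (0.064%) separated the series in this way, 4 of them family members (Fos, Fosb, Fosl2 and Junb). Fosb, and Npas4 among the others, passed the filter on low values only through F and E. These genes could be counted only by being higher there. On the log2(CPM + 1) scale the difference of Fos was 4.27 ± 0.24 for F minus D (SE, limma adjusted p = 1.3e-19) and 4.23 ± 0.24 for E minus D (adjusted p = 1.89e-19). It was 4.02 and 3.81 for F minus C and F minus B, and 3.98 and 3.77 for E minus C and E minus B. These comparisons share libraries and are not separate evidence.

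Fosb encodes a close relative of Fos, and in rodents a splice form of it, ΔFosB, is known to build up with repeated drug exposure or stress; a value per gene does not separate the forms. Fosb lay between 4.2 and 40.1 CPM in series F (median 27.7) and between 9.45 and 29.9 CPM in E (median 27.2). In D it reached at most 0.978 CPM (median 0.348), in C 0.808 CPM (median 0.313) and in B 1.16 CPM (median 0.577). The groups did not overlap. The ratio of medians, 75.7, rests on a median of 7 estimated counts per library in D, C and B, where 2 libraries of C had 0, which allows up to 3 counts. The log2 differences were 4.13 ± 0.23 for F minus D (adjusted p = 7.98e-20) and 4.02 ± 0.23 for E minus D (adjusted p = 1.89e-19). They understate the ratio because 1 CPM was added before the logarithm.

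Fosl2, also called Fra-2, encodes a Fos protein without the strong activation domain of Fos and FosB, and so does Fosl1, also called Fra-1. Fosl2 lay between 9.78 and 48.8 CPM in series F (median 46.6) and between 19.03 and 44.4 CPM in E (median 35.7). Its levels were 2.34 to 8.73 CPM in D (median 4.48), 2.32 to 9.74 in C (5.64) and 4.77 to 6.26 in B (5.45). The groups were separate only by the narrow step between library F1 at 9.78 CPM and the highest library of C at 9.74. Fosl2 differed by 2.63 ± 0.21 for F minus D (adjusted p = 4.88e-14) and by 2.61 ± 0.21 for E minus D (adjusted p = 9.05e-14), on the log2 scale. Fosl1 was low everywhere. It lay between 0.825 and 7.20 CPM in F (median 4.88) and between 3.35 and 6.96 in E (median 4.02), against at most 2.02 CPM in D (median 0.401), 1.74 in C (0.530) and 0.838 in B (0.419). Series E stood clear of D, C and B for Fosl1, and F overlapped them through library F1. The log2 difference of Fosl1 was 1.91 ± 0.21 for F minus D (adjusted p = 1.63e-09) and 1.90 ± 0.21 for E minus D (adjusted p = 2.28e-09).

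Among the Jun genes, Junb moved with the Fos genes. JunB is a partner of Fos that activates more weakly than Jun at many AP-1 sites, and its gene is a classical immediate early gene. Junb lay between 18.6 and 143 CPM in series F (median 117) and between 36.4 and 148 CPM in E (median 108). It lay between 4.84 and 8.18 CPM in D (median 6.33), 2.76 and 12.7 in C (6.62) and 5.34 and 11.4 in B (5.91). The groups did not overlap, and the ratio of the medians of F and E over D, C and B was 16.8. The log2 difference was 3.63 ± 0.24 for F minus D (adjusted p = 4.47e-17) and 3.58 ± 0.24 for E minus D (adjusted p = 9.84e-17).

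Jun, which encodes c-Jun, the Jun protein activated by JNK, differed far less. Its levels were 30.2 to 71.1 CPM in series F (median 55.7) and 42.6 to 69.2 CPM in E (median 50.3), against 24.03 to 50.8 in D (median 35.9), 24.8 to 59.7 in C (32.7) and 26.8 to 43.4 in B (33.7). The ranges overlapped, and the ratio of medians was 1.60. The log2 difference of Jun was 0.60 ± 0.15 for F minus D (adjusted p = 0.0332), 0.58 ± 0.15 for E minus D (0.0434), 0.66 for F minus C (0.00646) and 0.64 for E minus C (0.00989). Against series B the differences of 0.59 for F and 0.56 for E missed the threshold (adjusted p = 0.148 and 0.19). With library total as a covariate Jun was no longer called for F minus D (adjusted p = 0.0566) or E minus D (0.112), and with Ddx3y as a covariate it was not called for F minus C (0.178) or E minus C (0.156). Without library F1 it was called for F minus B as well (adjusted p = 0.0172).

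Within the 2 sets of series the members did not separate further. For F minus E, 0 of 7 members and 0 of 18749 genes were called by limma, with 0 members and 227 genes at an unadjusted p under 0.05. For D minus C, 0 members and 10 genes (0.0533%) were called, and for D minus B and C minus B 0 members and 0 genes, with 0 members but 1207, 558 and 660 genes at an unadjusted p under 0.05. The F minus E difference was 0.04 ± 0.27 for Fos, 0.10 ± 0.26 for Fosb and 0.05 ± 0.27 for Junb.

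**Figure D2:**
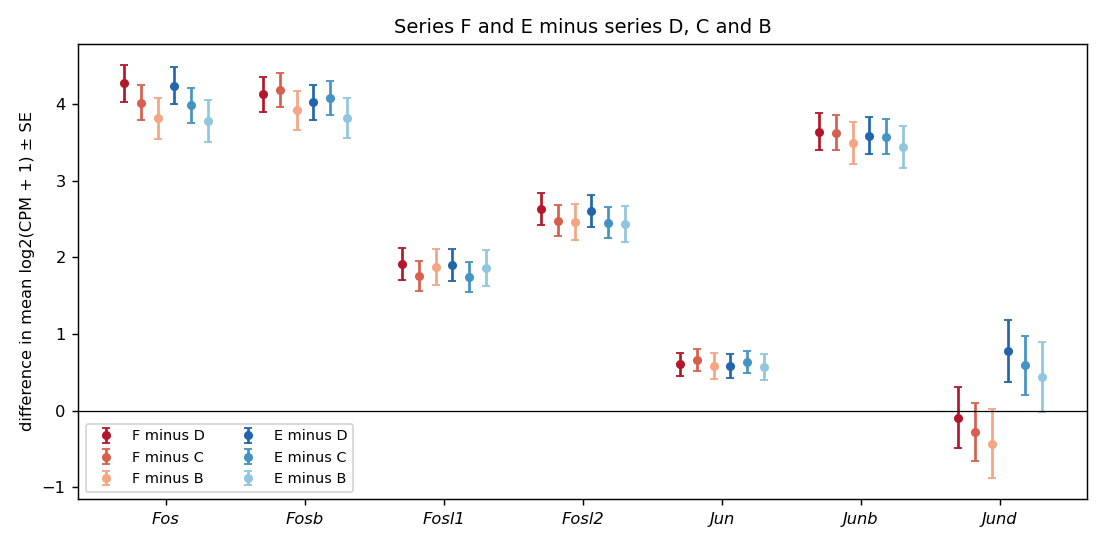
Difference in mean log2(CPM + 1) on the vertical axis between each of series F and E and each of series D, C and B, with its SE, for the 7 members. Fos differs by 3.77 to 4.27, Fosb by 3.81 to 4.18, Junb by 3.44 to 3.63, and the Jund intervals lie around 0 for series F.

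Several technical or tissue measures were set beside this difference. All libraries of series F (7), E (7) and D (12) had more Xist than Ddx3y, while 10 of 16 in C and 2 of 7 in B had the reverse, so F minus D and E minus D compare libraries alike in that respect. Within series, 0 of 7 members had a called slope on library total (0% of genes), on the share of LOC120093067 and Zfp532 (27.4% of genes) or on Ddx3y (0.064% of genes). On library total, Junb had a slope of 1.28 per log10 unit (unadjusted p = 0.00151), Fos of 1.16 (0.00449) and Fosb of 0.84 (0.0308), and median totals were higher in F and E than in D. Red-cell genes moved with the series: their summed level had a median of 1100 CPM in F (range 505 to 1895) and 1395 CPM in E (513 to 2674), against 511 in D (341 to 1139), 329 in C and 389 in B. All 6 red-cell genes past the filter were called by the F test, but 0 in F minus D or E minus D. The part of blood in the result was not tested.

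Other early genes were higher in the same series. The counts below are over listed genes past the filter and are read beside 0.581% of 18749 genes higher in F than in D and 0.581% higher in E than in D. Of 16 other early transcription factors, 12 were higher in F than in D and 11 in E than in D, and 0 were lower, with median log2 differences of 1.22 and 1.18 against 0.015 and -0.0058 over all genes tested. Egr1, a zinc finger factor, had medians of 100.1 CPM in F, 95.8 in E and 6.80 in D, with log2 differences of 3.42 for F minus D and 3.49 for E minus D. Nr4a1 and Nr4a3, orphan nuclear receptors, differed by 3.31 and 3.46 for F minus D, and Npas4, a factor of neurons that responds to calcium entry, by 3.46. Egr3, Egr4 and Npas4 passed the filter only through F and E. Nr4a2, which midbrain dopamine neurons also express, differed by 0.33 (adjusted p = 0.658), and Myc, Klf6 and Ier5 also missed the threshold.

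Of 22 early genes that are not transcription factors, 13 were higher in F than in D and 12 in E than in D. Gadd45g differed by 2.45 for F minus D and 2.19 for E minus D. Apold1, an early gene of vascular cells, differed by 1.97 and 1.51, Btg2 by 1.93 and 1.80, the kinase gene Sik1 by 1.84 and 1.63, and Dusp1, which encodes a phosphatase of MAP kinases, by 1.65 and 1.57. Arc, a gene of the synapse, differed by 1.41 and 1.03. Dusp4, Dusp6, Ptgs2, Plk3, Trib1 and Rasd1 were among those that missed the threshold.

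Of 11 partner genes of the ATF, JDP and MAF kind, 2 were higher in F than in D and 0 in E than in D: Maff by 1.04 and Atf3 by 0.76. Of 29 genes acting upstream of Fos and Jun (MAP kinases, SRF and its cofactors, CREB and its cofactors), 1 was higher in both, Crem, by 0.83 for F minus D and 0.66 for E minus D; one of its promoters is known to be induced by CREB. Srf differed by 0.06 and Creb1 by -0.07 for F minus D, both short of the threshold. Of 10 genes of AU-rich mRNA decay, which shortens the life of Fos mRNA, 0 were called in either comparison, with Zfp36 at 0.25 (adjusted p = 0.561) for F minus D.

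Later targets were called less often than the early genes. Their share was 13.3% in F minus D and in E minus D, against 0.581% of all genes in each. Of 15 genes known as later activity or AP-1 targets, 2 were higher in F than in D and in E than in D, the secreted-peptide genes Vgf (0.66 and 0.67) and Scg2 (0.52 and 0.66), and Inhba was lower in E than in D (-0.52), as were 0.411% of genes. Bdnf differed by 0.46 and 0.56 without passing the threshold. Of 10 glucocorticoid target genes, 3 were higher in F than in D and 1 in E than in D. Sgk1, a kinase gene, had medians of 757 CPM in F, 767 in E and 249 in D. Its medians in C and B were 427 CPM (up to 794) and 311 CPM (up to 770). Of 11 heat shock genes, 2 were higher in F than in D and 1 in E than in D, with Dnajb1 at 0.85 and 0.66. Over lists for neurons, RMTg inhibitory, dopamine and serotonin neurons, astrocytes, oligodendrocytes and their precursors, microglia, endothelial and mural cells, 0 markers were called in F minus D. In E minus D, Pnoc, Olig1 and Olig2 were higher and Map2 was lower.

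**Figure D3:**
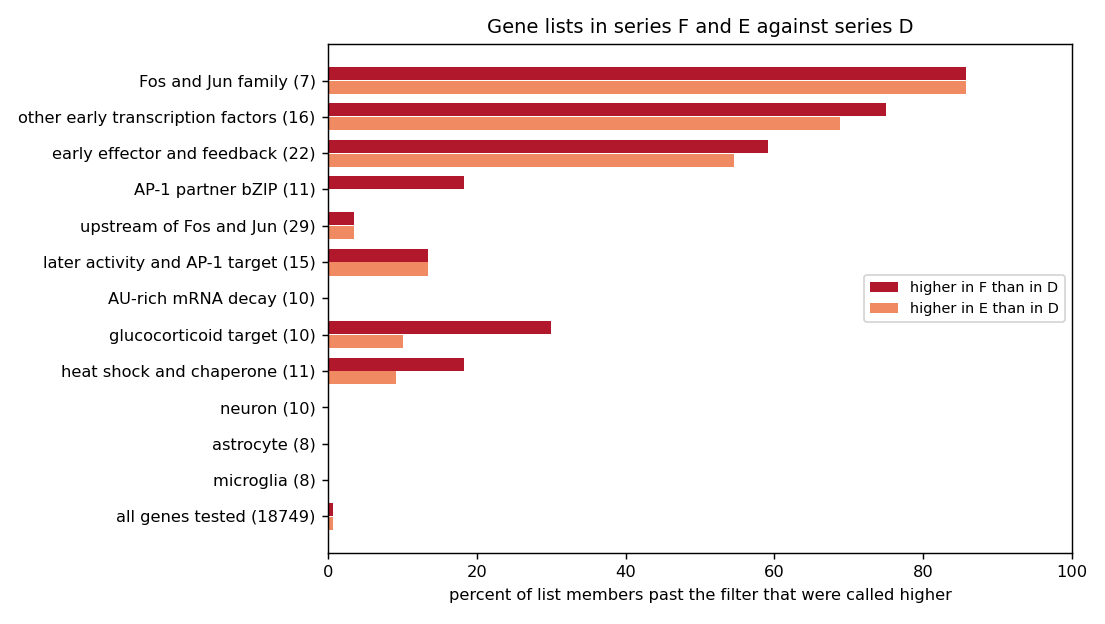
Percent of each gene list, over members past the filter (number in brackets), called higher in series F than in D (upper bar of each pair) and in series E than in D (lower bar). The Fos and Jun family and the other early genes reach 54.5% to 85.7%, against 0.581% of all genes tested.

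Within a series the members also varied, and that variation leaned on single libraries. F1 was the lowest library of series F for Fos (37.5 CPM, against 179 in the next), Fosb, Fosl1, Fosl2, Jun and Junb, and the highest for Jund (109 CPM, against 44.5 in the next). Its total was 13.3 M counts, F6 being lower at 12.9 M, and LOC120093067 and Zfp532 took 4.31% of its counts, the highest share in series F. In series E, library E5 was likewise the lowest for the same 6 genes, with Fos at 103, Fosb at 9.45, Fosl2 at 19.03 and Junb at 36.4 CPM, and the highest for Jund, at 216 CPM.

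When every gene was fitted on Fos with series as a covariate, 14 of 18748 genes rose with it (0.0747%) and 1, the protease gene Klk5, fell (0.00533%). Of the 6 other members, 4 rose. The slope, in log2 units per log2 unit of Fos, was 0.67 ± 0.10 for Fosb (SE, limma adjusted p = 3.1e-05), 0.68 ± 0.11 for Junb (0.000143), 0.52 ± 0.10 for Fosl1 (0.00539) and 0.50 ± 0.10 for Fosl2 (0.0167). Jun had a slope of 0.33 ± 0.08 (adjusted p = 0.0683) and Jund of -0.35 ± 0.23 (0.709), and neither passed. Without F1, 0 genes and 0 members were called: the slope was 0.42 for Fosb (adjusted p = 0.433) and 0.44 for Junb (0.644). Within series F and E alone and without F1, 13 genes were called, with slopes of 1.40 for Fosb (adjusted p = 0.00497) and 1.5 for Junb (0.000386). The other members missed the threshold there. Their slopes were 0.56 for Fosl1 (limma adjusted p = 0.563), 0.80 for Fosl2 (0.231), 0.52 for Jun (0.313) and -0.53 for Jund (0.879). In series D, C and B alone, 0 genes were called.

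The slope on Fos was tested for differing between series, and 5 genes were called (0.0267%): Junb, Egr4, Npas4, Gadd45g and Alox5. For Junb the slope was 1.10 in F, 1.49 in E, -0.22 in D, 0.49 in C and 0.71 in B (adjusted p = 0.0037). For Fosb it was 1.10 in F, 1.36 in E, 0.25 in D, 0.22 in C and 0.36 in B, which missed the threshold (adjusted p = 0.0686). Slopes in F include library F1, and the interaction test was not repeated without it. Egr4, Npas4 and Fosb passed the filter only through F and E. Their medians in D, C and B were under 1 CPM, where the added 1 CPM draws slopes towards 0. A lower slope there was thus partly set in advance for these genes.

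With each other member as the predictor in turn, 4 of the 6 remaining members rose with Fosb (0.117% of genes), 5 with Fosl2 (1.65%), 2 with Jun (0.107%), 2 with Junb (0.08%) and 2 with Fosl1 (0.0427%), F1 included.

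The genes most like Fos were those with the highest Pearson correlation of series-centred log2 values over the 49 libraries. They were Egr1 (r = 0.76, 0.60 without F1), Egr4 (0.73, 0.52), Fosb (0.73, 0.52), Nr4a3 (0.70, 0.56), Junb (0.69, 0.47), Nr4a1 (0.69, 0.57), Srxn1 (0.69, 0.53), Npas4 (0.64, 0.52), C3h11orf96 (0.64, 0.48) and Rrad (0.63, 0.37). Srxn1 encodes sulfiredoxin and Rrad a small GTPase of the Ras family. For Fosl2 and Jun, r was 0.68 (rho = 0.64) over the 49 libraries, 0.61 without F1, and 0.95 in F, 0.74 in E, 0.70 in D, 0.50 in C and 0.70 in B. Nptx1, which encodes a neuronal pentraxin, and Phlda1 stood among the 5 genes most like both. Fosb and Junb had an r of 0.80 (rho = 0.58), 0.62 without F1, and 0.98 in F, 0.96 in E, -0.02 in D, 0.32 in C and 0.91 in B.

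**Figure D4:**
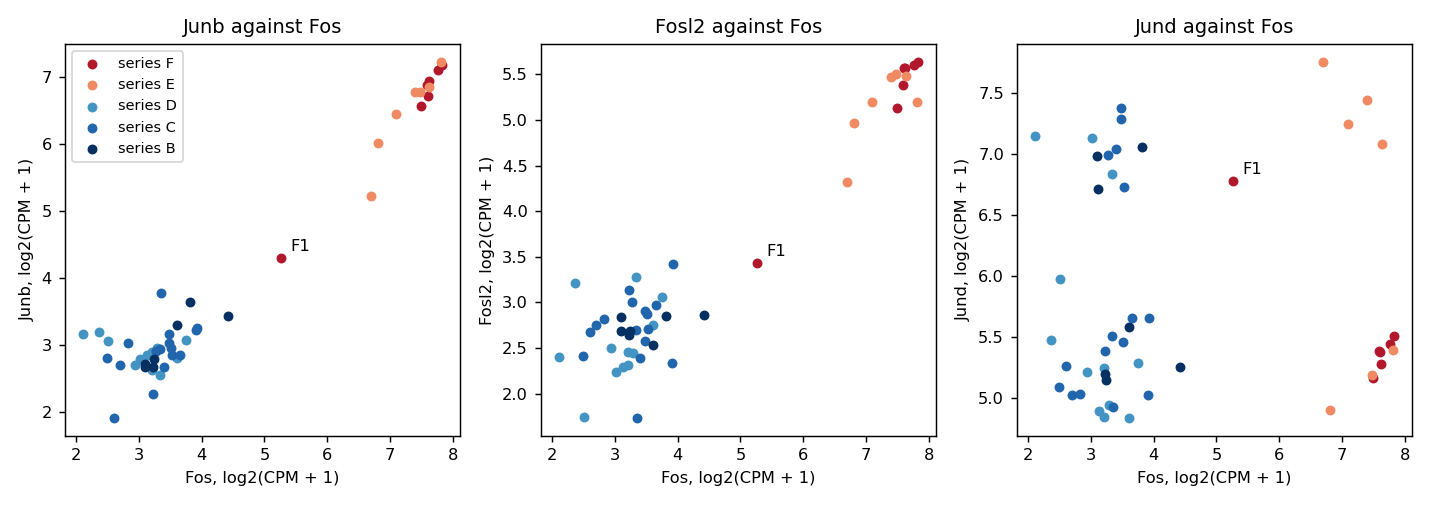
Junb, Fosl2 and Jund against Fos in 49 ordinary libraries, both axes in log2(CPM + 1), 1 point per library coloured by identifier series, with library F1 marked. Series F and E lie apart from D, C and B along the Fos axis in every panel, with F1 between the clouds. Along the vertical axis they lie apart for Junb and Fosl2 and overlap for Jund.

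Jund, whose protein pairs with Fos proteins like the other Jun proteins, was the member whose difference among series missed the threshold. It lay between 34.9 and 109 CPM in series F (median 40.7) and between 28.9 and 216 CPM in E (median 134), against 27.5 to 141 in D (median 37.4), 29.4 to 166 in C (43.7) and 34.3 to 133 in B (46.9). The ranges of all 5 series overlapped. The log2 difference was -0.09 ± 0.40 for F minus D (adjusted p = 0.952) and 0.78 ± 0.40 for E minus D (0.341), and F minus E was -0.87 ± 0.45 with an unadjusted p of 0.0597. The SE leaves room for differences of the size seen for Jun.

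Jund split the libraries at 2 levels in another way. Of the 49, 33 lay between 27.5 and 61.7 CPM and 16 between 104 and 216 CPM, with 0 between. The step of 0.75 log2 units ranked 56 of 18749 genes, counting only steps with at least 5 libraries on each side. On the same measure Fos ranked 24, Fosb 31, Junb 46 and Fosl2 48. The higher level held 1 of 7 libraries in series F, 4 of 7 in E, 3 of 12 in D, 5 of 16 in C and 3 of 7 in B. The within-series SD of Jund was 0.91 log2 units, rank 97 of 18749, against 0.54 for Fos, rank 646, and a median gene of 0.29. The levels were chosen from the values, so no test was made between them.

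**Figure D5:**
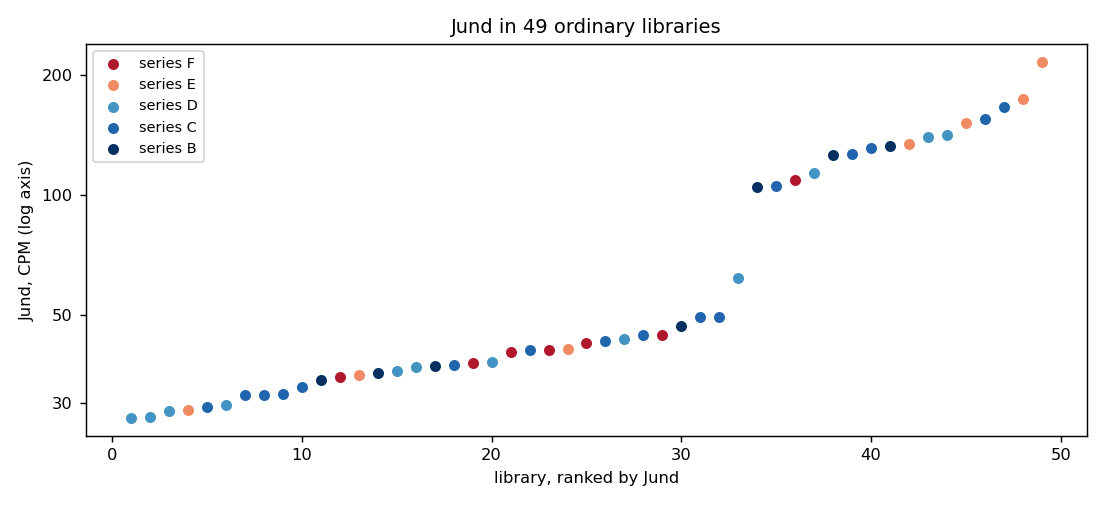
Jund in CPM on a log axis in 49 ordinary libraries ranked by level and coloured by identifier series. No library lies between 61.7 and 104 CPM, and every series has libraries on both sides.

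No member was called for a slope on Jund. With Jund as the predictor and series as a covariate, 0 of 18748 genes (0%) were called by limma and 926 (4.94%) had an unadjusted p under 0.05. The slope of Fosl1 was -0.15 (unadjusted p = 0.035), and those of the other members lay between -0.13 and -0.06. The gene nearest to the threshold was Klhl26, on chromosome 16 at 18986095 in the table's coordinates, 216 kb from Jund at 18769771. Its slope was -0.20 ± 0.04 (adjusted p = 0.0528), with r of -0.71 in F, -0.87 in E, -0.51 in D, -0.65 in C and -0.66 in B. In 31 libraries dominated by LOC120093067 and Zfp532, r of Klhl26 with Jund was of the other sign, at 0.28. Klhl26 was named after its values were seen, so its r by series is not separate evidence. Among 119 genes within 2000000 bases of Jund, 10 (8.40%) had an unadjusted p under 0.05, against 6.29% of 525 genes on chromosome 16.

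The 32 libraries dominated by LOC120093067 and Zfp532 held no library of series F or E. They came from series A (5), which had no ordinary library, B (18), C (8) and D (1). With totals that leave out the dominant features, Fos had a median of 4.67 CPM (0 to 13.3), Fosb of 0.356 CPM, Junb of 9.22 CPM (1.77 to 14) and Jun of 43.6 CPM (12.4 to 83.4). Fosl2 had a median of 17.2 CPM (6.82 to 34.2) and Jund of 236 CPM (91.6 to 356), with the 49 ordinary libraries at 6.39 and 43.7 CPM on the same scale. Those 49 include series F and E. With full totals, ordinary libraries of D, C and B had medians of 5.45 CPM for Fosl2 and 42.9 CPM for Jund. No test was made between these kinds of library, which differ in composition as a whole. Within 31 of them, 32% of 20163 genes had a slope on Fos that passed, and 0 of the 4 members tested did: 0.19 for Jun, -0.23 for Fosl2, 0.08 for Jund and -0.02 for Junb. In the 11 libraries dominated by Nif3l1 the members were at or near 0, with a median of 0 for Fos and 4.23 CPM for Jund.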

How the data were processed

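Polyadenylated RNA of 93 labelled samples was sequenced; 1 sample, marked as removed, was not used. The deposited table holds log2 values which, from the values, are log2 of an estimated count plus 1; the submitters' processing notes name kallisto 0.48. The genome build is not given in the sources used here, and positions are the table's. Values were back-transformed, scaled by each library's total to counts per 1000000 (CPM) and taken as log2(CPM + 1); the authors had not removed depth. Genes at 1 or more in at least 20% of 49 ordinary libraries were kept (18749). Depth, 9.55 to 50.2 M (1000000) counts, sets the precision of low members.

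Series were compared, and slopes on Fos, Jund and other predictors fitted with series as covariate, with limma 3.58.1 in R 4.3.3 (mean trend, Benjamini-Hochberg over all genes in each comparison). Correlations used 100000 permutations within series over 21 pairs. Members, lists and comparisons were chosen with earlier results of these data known. Named genes were members, listed genes, and those most correlated with each member; others are marked as named after seeing values. On simulated data with E minus D changes, 38% of 50 changed genes were recovered at 0.5 log2 units, 76% of 50 at 1 and 100% of 50 at 2. There, 8 unchanged genes were called. Genes were drawn independently, so shifts shared by many genes of a library were not simulated. Alternatives varied pseudocount, filter, scaling, weights, covariates and libraries. Transcript length, protein sequence and the sample with no column were not analysed here. Counts of the values are estimates, so floors cover counting error only.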

Additional observations from a re-analysis of the deposited data

Results flagged for a closer look

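Library F1 stood far from the other 6 libraries of series F for 4 members. Its gap to the nearest library, as a share of the range of series F, was over Dixon's critical value for Fos (37.5 CPM, the lowest), Fosl2 (9.78 CPM, the lowest), Junb (18.6 CPM, the lowest) and Jund (109 CPM, the highest). These were 4 flags in 21 groups checked, and chance flags about 1 in 20 groups. The 4 values come from 1 library and are not separate. Why F1 stands apart was not tested.

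The slope of Junb on Fos differed between series (limma F test of the interaction, adjusted p = 0.0037). It was 1.10 in F, 1.49 in E, -0.22 in D, 0.49 in C and 0.71 in B. The slope in F includes library F1, the lowest there for both genes, and the test was not repeated without F1.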

How the results depend on the processing

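Over 60 alternatives each (10 settings in each of 6 contrasts of F or E with D, C or B), Fos, Fosb, Fosl1, Fosl2 and Junb were called in all 60 and Jund in 0, with 0 reversed. Jun was called in 37 of 60 (log2 difference 0.50 to 0.79); without series E or F its F test missed the threshold (adjusted p = 0.0662 and 0.0597). No scaling moved the median of all genes by over 0.1.

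Counts of called genes moved more than members did. The F test called 320 genes, against 3282 with library weights, 167 with Ddx3y as covariate, 698 with the dominant pair under 4%, 14000 over all 92 libraries, 579 without series C, 116 without E and 107 without F. The slope on Fos called 15 genes, against 29 with pseudocount 5, 33 with no filter, 23 with library weights, 0 with the pair under 4%, 18003 over all 92 libraries, 24 without series C, 0 without F, 3020 with no series covariate, 0 without library F1, 0 in D, C and B alone and 27 in F and E alone. Library F1, with a pair share of 4.31%, was also absent with the pair under 4%, without F, and in D, C and B alone. In feature-dominated libraries the slope on Fos called 6444, against 4120 with median-of-ratios scaling. D minus C called 10 genes, against 0 with no filter, 2 with voom weights, 42 with library weights and 0 with Ddx3y. E minus C called 363, against 218 with no filter, 3587 with library weights, 159 with library total and 69 with Ddx3y. E minus D called 186, against 98 with no filter, 1519 with library weights and 91 with library total. D minus B called 0, against 4 with voom weights, 7 with library weights and 1 with Ddx3y. With library weights E minus B called 426 instead of 78, F minus B 474 instead of 100, F minus C 3234 instead of 187 (77 with Ddx3y) and F minus D 1571 instead of 137. Of 21 member pairs, 15 had an unadjusted permutation p under 0.05 (14 positive, and Fosl1 with Jund negative), and 7 without F1, all positive; the share over other gene pairs was not computed.

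The slope on Fos of Jund turned to 0.82 over all 92 libraries (adjusted p = 1.22e-06) and 0.021 with no series covariate; in dominated libraries with median-of-ratios scaling those of Jun and Jund turned to -0.029 and -0.13. The slope on Jund turned to 0.094 for Fos, 0.075 for Fosb, 0.074 for Fosl2 and 0.065 for Junb with no series covariate, and to 0.011 for Fosl2 without series F. The causes were not tested. The restrictions by F1 and by series sets, and alternatives of the slope on Jund, were chosen after seeing the data. No paired analysis was possible because the labels give 1 group and no shared replicate numbers. Depth limits Fosb and Fosl1 in D, C and B.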
